A study of Homo sapiens with 9 samples.

Results

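The chemokines CXCL1, CXCL2, CXCL3, CXCL5, CXCL6, IL8 (the older symbol of CXCL8), CXCL9, CXCL10, CXCL11 and CCL20 were followed in the HT-29 colon cancer cell line over increasing concentrations of 5-aza-deoxy-cytidine (5-Aza). They were chosen by symbol, make up 10 of the 23284 gene symbols in the files, and all 10 were listed in every library. They fall into 6 neutrophil-attracting chemokines (CXCL1, CXCL2, CXCL3, CXCL5, CXCL6 and IL8), 3 interferon-induced chemokines (CXCL9, CXCL10 and CXCL11), and CCL20. RNA was measured by paired-end 100 bp sequencing in 9 dishes of HT-29 cells. The groups were 0 µM 5-Aza, which is the vehicle dimethyl sulfoxide alone, 5 µM 5-Aza and 10 µM 5-Aza, with 3 separately cultured and extracted replicates at each concentration. Treatment lasted 5 days. All groups are the same tumor cell line, no other cell type was cultured with it, and 5-Aza, a cytidine analog that is built into DNA and traps DNA methyltransferases, acted on the whole genome.

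Chemokines are small secreted proteins that guide leukocytes along a gradient. CXC chemokines with an ELR motif before the first cysteines (CXCL1, CXCL2, CXCL3, CXCL5, CXCL6 and IL8) bind CXCR2, some of them also CXCR1, and draw neutrophils. Epithelial cells make them through NF-kB after a bacterial or cytokine signal. CXCL9, CXCL10 and CXCL11 lack that motif, are induced by interferons and draw T cells and NK cells through CXCR3. CCL20 is made by gut epithelium and draws dendritic cells, B cells and helper T cells through CCR6.

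The CXC genes lie on chromosome 4 in 2 clusters, in hg19 coordinates. The neutrophil-attracting cluster runs from IL8 (chr4:74606286-74609433) through CXCL6 (chr4:74702395-74704477) and CXCL1 (chr4:74735110-74737025), all on the plus strand, to CXCL5 (chr4:74861359-74864394), CXCL3 (chr4:74902306-74904406) and CXCL2 (chr4:74962757-74964912) on the minus strand. The interferon-induced cluster holds CXCL9 (chr4:76922428-76928662), CXCL10 (chr4:76942271-76944650) and CXCL11 (chr4:76954835-76957223) on the minus strand. CCL20 lies apart, at chr2:228678558-228682272 on the plus strand. Each canonical transcript has 4 exons. No stretch of 100 bases was shared between the canonical transcripts of any members, so a full-length exact read of 1 member does not match another. Reads with mismatches and other transcripts are not covered by this check.

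The 250 bases before the RefSeq transcription start (GRCh38.p14) are printed for 5 of the genes, to show which promoters hold CpGs, the targets of DNA methylation, and which hold sites of the factors that induce these genes. All 10 genes were matched to a promoter of that table. Capitals mark matches to the letters GGAANNTCC or to GGG followed by 5 bases of any kind and CC, both NF-kB type sites searched on both strands, and to GAAA, 2 bases of any kind and GAAA, the interferon response element type, also on both strands. CXCL1 (chr4:73869143-73869392, plus strand) stands for the members with more CpGs than the median promoter. CXCL5 (chr4:73998678-73998927, minus strand) stands for the gene listed at 0 in untreated cells, and CXCL10 (chr4:76023498-76023747, minus strand) for the interferon-induced genes. IL8 (chr4:73740319-73740568, plus strand) and CCL20 (chr2:227813592-227813841, plus strand) had the smallest adjusted p at 5 µM among the genes above 0 in untreated cells.
CXCL1: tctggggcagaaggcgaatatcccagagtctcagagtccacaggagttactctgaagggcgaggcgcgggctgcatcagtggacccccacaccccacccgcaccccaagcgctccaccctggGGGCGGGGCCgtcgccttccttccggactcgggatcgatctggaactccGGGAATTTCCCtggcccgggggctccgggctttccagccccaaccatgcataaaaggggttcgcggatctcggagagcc
IL8: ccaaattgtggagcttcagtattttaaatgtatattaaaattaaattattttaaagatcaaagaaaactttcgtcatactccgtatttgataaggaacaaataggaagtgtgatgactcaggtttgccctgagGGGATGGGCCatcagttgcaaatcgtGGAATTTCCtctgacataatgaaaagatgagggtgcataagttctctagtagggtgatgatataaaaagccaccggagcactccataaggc
CXCL5: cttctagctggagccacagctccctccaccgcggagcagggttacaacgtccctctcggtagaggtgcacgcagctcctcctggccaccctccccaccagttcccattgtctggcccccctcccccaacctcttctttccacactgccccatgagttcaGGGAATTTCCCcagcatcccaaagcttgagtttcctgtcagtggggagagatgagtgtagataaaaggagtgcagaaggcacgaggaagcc
CXCL10: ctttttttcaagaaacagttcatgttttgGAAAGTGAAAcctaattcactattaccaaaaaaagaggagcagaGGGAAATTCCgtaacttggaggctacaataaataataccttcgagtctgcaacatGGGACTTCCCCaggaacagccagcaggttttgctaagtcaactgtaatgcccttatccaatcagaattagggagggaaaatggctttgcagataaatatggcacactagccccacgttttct
CCL20: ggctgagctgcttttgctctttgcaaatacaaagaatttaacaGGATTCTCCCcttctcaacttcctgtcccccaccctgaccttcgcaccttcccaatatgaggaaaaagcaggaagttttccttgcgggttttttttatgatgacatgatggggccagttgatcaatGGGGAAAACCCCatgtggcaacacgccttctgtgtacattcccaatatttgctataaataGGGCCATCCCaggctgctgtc

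The 9-letter NF-kB type match GGAANNTCC occurred once in each of the 6 neutrophil-attracting promoters and in CXCL10 and CXCL11, and in neither CXCL9 nor CCL20, while 3.882% of all 27305 promoters of the same length held it. In the neutrophil-attracting genes it began between 77 and 91 bases before the start. Among the interferon-induced genes it began 75 bases before in CXCL11 and 176 bases before in CXCL10. The looser 10-letter form overlapped it in these genes except IL8, and was present in all 10 genes, but also in 53.73% of all promoters. CCL20, without the 9-letter form, held 5 matches to the looser form. The interferon response element letters were found in CXCL9 and CXCL10, against 3.073% of promoters, and were not found in this window of CXCL11. The AP-1 letters TGANTCA (both strands, 6.596% of promoters) stood in IL8 and CXCL11, and the letters TATAAA on the gene strand (7.175%) in IL8, CXCL9, CXCL11 and CCL20.

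CpG dinucleotides, the bases that DNA methyltransferases modify, were unevenly spread over the promoters. CXCL1, CXCL2 and CXCL3 held 18, 20 and 19 CpGs, above the median of 11 over all promoters. Fewer CpGs than in these 3 genes were held by 63.5%, 67.9% and 65.7% of all promoters. CXCL5 and CXCL6 held 6 each, IL8 held 4, CXCL10 and CCL20 held 3, and CXCL9 and CXCL11 held 0. Promoters were most alike between CXCL5 and CXCL6 (85.3% identical aligned positions) and between CXCL1 and CXCL3 (81.4%), followed by CXCL2 with CXCL3 (73.4%) and with CXCL1 (70.1%), and every other pair was at or below 54.9%. Methylation was not measured in these files.

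**Figure D1:**
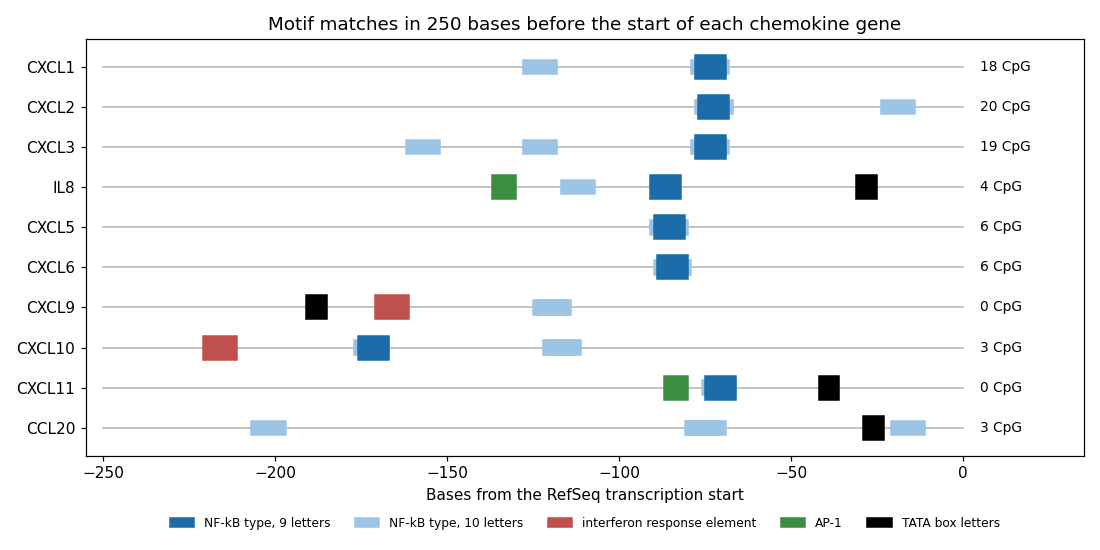
Motif matches in the 250 bases before the transcription start of each chemokine gene. The x axis is the distance in bases from the RefSeq start at 0, and each line is a gene. Colored blocks are motif matches, and the number at the right is the count of CpGs in the window. The 9-letter NF-kB type block sits within 91 bases of the start in the 6 neutrophil-attracting genes and in CXCL11. CXCL1, CXCL2 and CXCL3 hold the most CpGs.

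Levels are given as the deposited FPKM, a fragment number divided by gene length and library size. The values are on an unusually high scale, with sums per library of 3.69e+09 to 5.91e+09, so they were read only relative to each other. The median FPKM over symbols above 0 was 69444 to 78724 at 0 µM, 53482 to 56295 at 5 µM and 52105 to 63920 at 10 µM. From the size of the smallest FPKM step, each library was estimated to hold 12017217 to 32723721 fragments, with 12017217, 25953510 and 16987166 in replicates 1, 2 and 3 at 10 µM. All 12 colon epithelium markers, EPCAM among them, were above 0 in every library, with summed levels of 9.16e+07 to 1.10e+08 FPKM at 0 µM, 3.93e+07 to 4.40e+07 at 5 µM and 3.06e+07 to 5.36e+07 at 10 µM. KRT8 and KRT18 made up most of the untreated sum, with means of 3.9e+07 and 3.3e+07 FPKM, against 1.3e+07 and 1.1e+07 at 5 µM. Of the 12 epithelium markers, 2 rose at 5 µM by the test described below (CDX1 and CEACAM5) and 3 fell (KRT8, KRT18 and KRT19). Of all genes tested there, 14.1% rose and 2.17% fell. At 10 µM against 0 µM, 0 epithelium markers rose and 3 fell (KRT19, CDX2 and KRT20). The summed level of 12 leukocyte markers was 164524 to 185435 at 0 µM, 710793 to 756817 at 5 µM and 239951 to 411672 at 10 µM. Most of it was CD68, a lysosomal protein gene. PTPRC, the pan-leukocyte gene, was at 0 in 2 of 3 untreated libraries and between 137 and 983 FPKM at 5 µM. CD3D, CD3E, FCGR3B and CD163 were at 0 in all untreated libraries. Other markers of the list were not: untreated CD14 lay between 36125 and 48157 FPKM and CD4 between 4812 and 6449.5 FPKM. Of the 12 leukocyte markers, 4 rose at 5 µM, beside 14.1% of all genes tested. ITGAM, CD3E and FCGR3B were among them, the last 2 on about 9 and 11 fragments over the 5 µM libraries. The summed level of 10 fibroblast and endothelium markers was 24913 to 35633, 92611 to 99698 and 48889 to 56085 at the 3 concentrations, and 7 of the 10 rose at 5 µM, where 14.1% of all genes tested rose by the test described below. The leukocyte and stromal sums were highest at 5 µM, as were several members, and a relation between them was not tested. All cultures held HT-29 cells alone, so these sums are RNA levels of HT-29 cultures and do not count leukocytes or stromal cells. In bulk RNA, fewer cells expressing a gene and less RNA per cell cannot be told apart.

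Untreated HT-29 cells made RNA for most of the chemokines, all below the middle of the expressed genes. In order of mean level they were CXCL2 (12933 ± 4813 FPKM, SD, n = 3 here and at each mean below), CXCL1 (10937 ± 5313), IL8 (9357 ± 1594), CCL20 (6805 ± 1100), CXCL3 (6773 ± 254), CXCL11 (4019 ± 3842), CXCL10 (728 ± 713), CXCL6 (233 ± 403), CXCL9 (144 ± 250.02) and CXCL5, which was listed at 0 in all 3 libraries. The replicate ranges of each gene overlapped those of the next in this order, so neighbors are not resolved. Genes further apart were: the lowest CXCL2 replicate lay above every CCL20 and CXCL3 replicate, and CXCL2, CXCL1, IL8, CCL20 and CXCL3 lay above every CXCL10, CXCL6 and CXCL9 replicate. At 5 µM the order changed. CCL20 stood first, its lowest replicate above the highest of CXCL1, which came next, and IL8, CXCL2, CXCL3, CXCL11, CXCL10, CXCL6, CXCL5 and CXCL9 followed. Neighbors whose replicates did not overlap at 5 µM were CCL20 and CXCL1, IL8 and CXCL2, CXCL3 and CXCL11, and CXCL10 and CXCL6. At 10 µM the order of means was the same, and CXCL3 and CXCL11 were the neighbors that did not overlap.

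**Figure D2:**
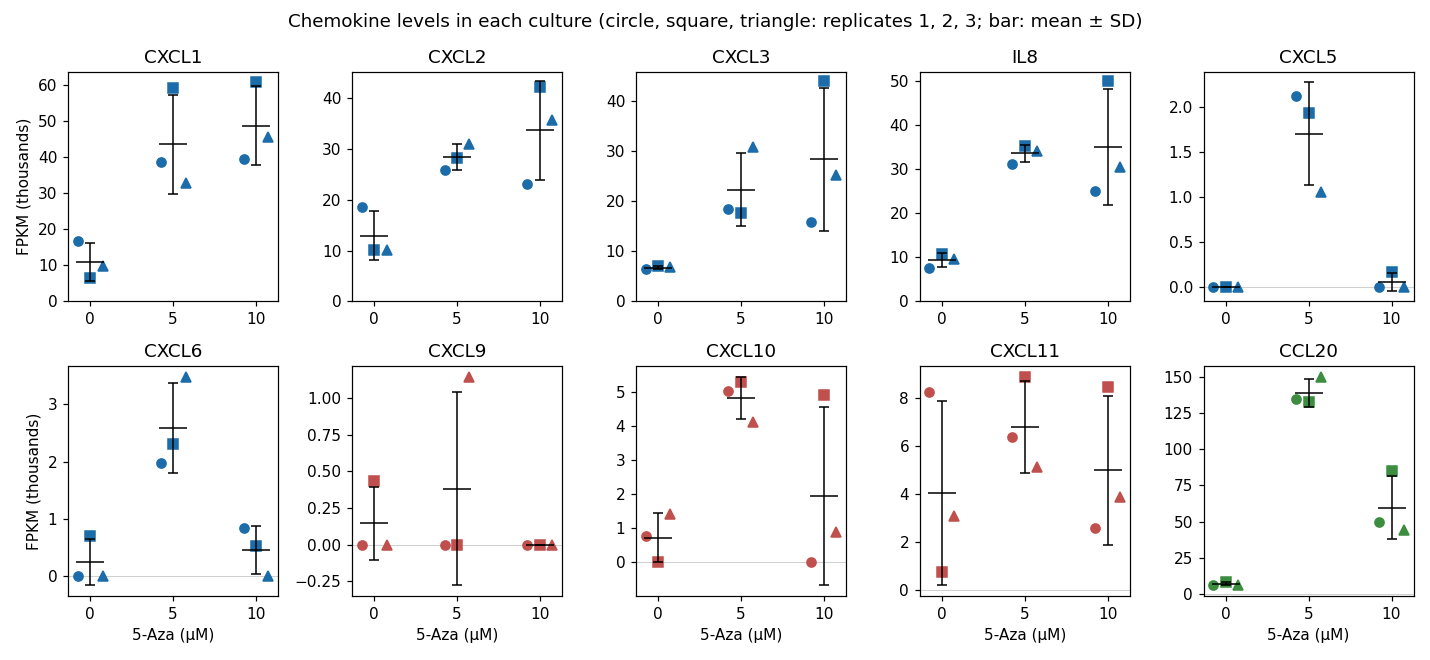
FPKM divided by 1000 (y axis, a scale of its own in each panel) against 5-Aza in µM (x axis) for the 10 chemokines. Circles, squares and triangles are replicates 1, 2 and 3, the bar is the mean ± SD (n = 3), and colors separate neutrophil-attracting (blue), interferon-induced (red) and CCL20 (green): CXCL1, CXCL2, CXCL3 and IL8 have their highest means at 10 µM, and CXCL5, CXCL6, CXCL9, CXCL10, CXCL11 and CCL20 at 5 µM, a fall that passed the test for CCL20 alone.

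The comparison of 5 µM with 0 µM asked which genes the lower concentration changed. Of the 10 chemokines, 6 were up-regulated and 0 down-regulated: CXCL1, CXCL2, CXCL3, CXCL5, IL8 and CCL20. Up-regulated here means a limma adjusted p of at most 0.05 and a difference above 1 on the log2(FPKM + 1) scale, which 14.1% of the 20051 genes tested passed, and 2.17% passed in the opposite direction. By class, 5 of 6 neutrophil-attracting, 0 of 3 interferon-induced chemokines and CCL20 passed. The replicates did not overlap, with 5 µM higher, for 8 of 10 members against 29.4% of genes tested. The median log2 difference of the 6 neutrophil-attracting genes was 1.96 (1.56 with a pseudocount of 1000), that of the 3 interferon-induced chemokines was 1.32 (0.93), and that of all genes tested was 0.14. With the pseudocount of 1000, 8 members passed, 6 of 6 neutrophil-attracting genes, CXCL10 and CCL20. The difference between the classes was not tested.

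IL8, which recruits and activates neutrophils, had the smallest relative spread at 5 µM among the neutrophil-attracting genes. Untreated cells had 7666, 10832 and 9574 FPKM, the 5 µM cultures 31233, 35103.5 and 34160, and the 10 µM cultures 24932.5, 49877 and 30336. Every treated replicate was above every untreated replicate, and the 10 µM range enclosed the 5 µM range. The increase was 3.58-fold at 5 µM (log2 difference 1.85, SE 0.17, adjusted p = 0.000642 by limma) and 3.75-fold at 10 µM (1.86, SE 0.31, adjusted p = 0.0142). Between 5 µM and 10 µM the log2 difference was 0.0035 (SE 0.27, adjusted p = 0.996). The fragments behind these values were counted from the FPKM steps as 15, 32 and 40 untreated, 147, 157 and 172 at 5 µM, and 62, 196 and 101 at 10 µM, so the smaller FPKM spread at 5 µM also rests on more fragments.

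CXCL1, a ligand of CXCR2, had larger ratios of means than CXCL2, CXCL3 and IL8 at both concentrations. This order was not tested, and the log2 differences of CXCL1, CXCL3 and IL8 overlapped within their standard errors. Its values were 16755, 6341 and 9715 FPKM untreated, 38474, 58987 and 32864 at 5 µM, and 39549, 60779.8 and 45481 at 10 µM. No treated replicate overlapped the untreated ones. The ratio of means was 3.97 at 5 µM (log2 difference 2.06, SE 0.40, adjusted p = 0.00835 by limma) and 4.44 at 10 µM (2.24, SE 0.37, adjusted p = 0.0140).

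CXCL2 and CXCL3, close relatives of CXCL1, were also up-regulated at both concentrations, with smaller folds. CXCL2 was at 18490.1, 10205 and 10102.5 FPKM untreated, 25942, 28312 and 31061 at 5 µM, and 23035, 42196 and 35768 at 10 µM. It had the smallest fold of the called members, 2.20 at 5 µM (log2 difference 1.19, SE 0.26, adjusted p = 0.0142 by limma) and 2.60 at 10 µM (1.40, SE 0.34, adjusted p = 0.0372). CXCL2 had the highest untreated mean of the 10 genes, overlapping CXCL1 and IL8. Its call at 5 µM was lost without 5 µM replicate 2 (adjusted p = 0.0515) or replicate 3 (adjusted p = 0.0622).

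CXCL3 was at 6491, 6986 and 6840.15 FPKM untreated, 18553, 17749 and 30822 at 5 µM, and 15961, 44038 and 25274 at 10 µM. Untreated replicates lay close together and the 10 µM replicates were the most spread. CXCL3 rose 3.30-fold at 5 µM (log2 difference 1.68, SE 0.25, adjusted p = 0.00306 by limma) and 4.20-fold at 10 µM (1.95, SE 0.38, adjusted p = 0.0211).

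CXCL5 and CXCL6, the pair with the most similar promoters, had their highest levels at 5 µM. CXCL5, a neutrophil attractant of epithelial cells, was listed at 0 in all 3 untreated libraries, at 2118, 1931 and 1056 FPKM at 5 µM, and at 0, 169 and 0 FPKM at 10 µM. In fragments, the libraries at 5 µM held 15, 13 and 8 fragments, and the 10 µM libraries held 1 fragment in all. CXCL5 was called up-regulated at 5 µM (adjusted p = 0.00055 by limma). No fold is given against a group listed at 0, and its log2 difference moved with the pseudocount, from 10.67 with 1 to 1.41 with 1000. From 5 µM to 10 µM its replicates did not overlap, with 10 µM lower, but the test was not passed (log2 difference −8.20, SE 2.08, adjusted p = 0.0680). It was passed with a pseudocount of 1000 (−1.34, adjusted p = 0.00960) and without 10 µM replicate 2 (adjusted p = 0.00571). That replicate held the only 10 µM fragment. Leaving it out sets the 10 µM group to 0 with no spread, so this pass is not separate support. A lncRNA on the opposite strand, ENSG00000287037, shares 422 exonic bases with CXCL5, and without strand in the libraries reads of the pair cannot be told apart.

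CXCL6, a CXCR1 and CXCR2 ligand next to IL8 on the chromosome, was at 0, 699 and 0 FPKM untreated, 1973, 2307 and 3484 at 5 µM, and 829.9, 525 and 0 at 10 µM. These are 2 fragments in all untreated, 36 at 5 µM and 4 at 10 µM. The 5 µM replicates lay above all others. CXCL6 missed the threshold at 5 µM by a narrow margin (log2 difference 8.15, SE 2.62, adjusted p = 0.0501 by limma), and it passed with median-of-ratios scaling (adjusted p = 0.0478), with a pseudocount of 1000 (1.57, adjusted p = 0.00368) and without untreated replicate 2 (adjusted p = 0.00144). Untreated replicate 2 was the only untreated library above 0. Leaving it out sets the untreated group to 0 with no spread, so that pass is not separate support. From 5 µM to 10 µM the log2 difference was −5.05 (SE 2.43, adjusted p = 0.241), with no overlap.

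**Figure D3:**
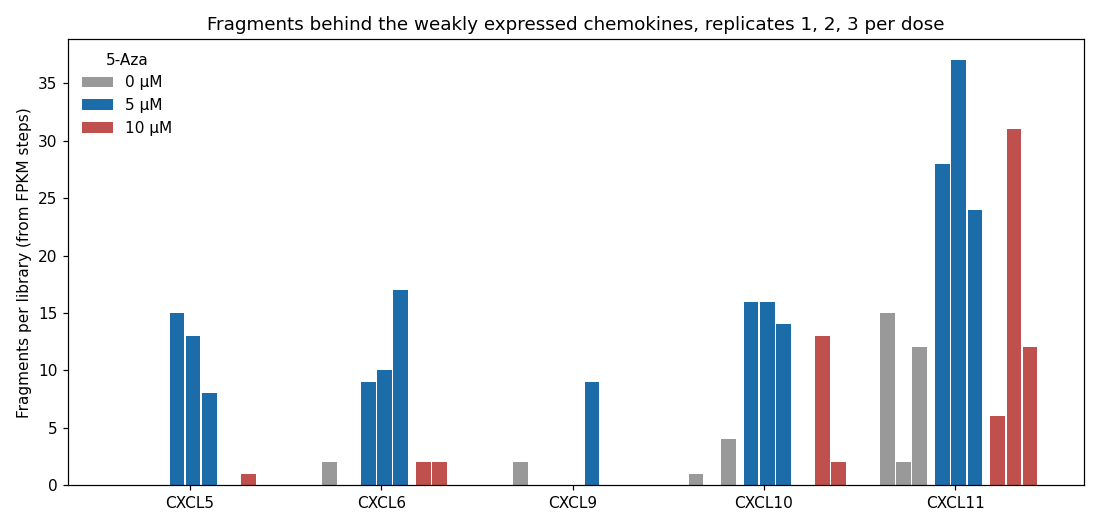
Fragments per library (y axis, recovered from the FPKM steps) behind the 5 weakly expressed chemokines. Bars are replicates 1, 2 and 3 at 0 µM (grey), 5 µM (blue) and 10 µM (red), and a missing bar is a library listed at 0: CXCL5 and CXCL6 rest on 8 to 17 fragments per library at 5 µM and on at most 2 elsewhere.

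The interferon-induced chemokines were low, variable and not called in any comparison. CXCL10, a T cell attractant, was at 760.4, 0 and 1424 FPKM untreated, 5058, 5323 and 4137 at 5 µM, and 0, 4922 and 894 at 10 µM. All 5 µM replicates lay above all untreated ones, with a ratio of means of 6.64, but the untreated library at 0 widened the log-scale spread (log2 difference 5.55, SE 2.72, adjusted p = 0.148 by limma). The test was passed with a pseudocount of 1000 (1.84, adjusted p = 0.00411) and without untreated replicate 2 (2.21, adjusted p = 0.0137). At 10 µM the 3 replicates spanned from 0 to the 5 µM level, and the sign of the difference from 0 µM depended on which replicate was left out. CXCL10 rested on 5 fragments untreated, 46 at 5 µM and 15 at 10 µM.

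CXCL11 was the interferon-induced member with the highest level at every concentration. It was at 8241, 728 and 3088 FPKM untreated, 6395, 8893 and 5124 at 5 µM, and 2594, 8480.1 and 3874 at 10 µM. All groups overlapped. Its log2 difference was 1.32 at 5 µM (SE 0.86, adjusted p = 0.264 by limma) and 0.73 at 10 µM (SE 0.91, adjusted p = 0.572). The IL8 difference at 5 µM (1.85) lay within that SE, and the IL8 difference at 10 µM (1.86) lay above it. CXCL11 and IL8 were not tested against each other. CXCL9 was listed at 0 in 7 of 9 libraries, and its values above 0 were 433 FPKM in untreated replicate 2 and 1143 FPKM in 5 µM replicate 3, from 2 and 9 fragments.

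ART3, an ADP-ribosyltransferase family gene on the opposite strand, spans the CXCL10 and CXCL11 loci. It was listed at 0 in the untreated libraries and was at 7902, 10583 and 6938 FPKM at 5 µM and at 1360, 0 and 338 FPKM at 10 µM. It shares 0 exonic bases with the canonical transcripts of CXCL10 and CXCL11, so exonic reads of these genes are separate, but unspliced reads cannot be told apart without strand.

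CCL20 had the largest response of the 6 members above 0 in all libraries. It was at 6094, 8073 and 6249 FPKM untreated, 134905, 132476 and 150223 at 5 µM, and 49714, 84775 and 44243.5 at 10 µM. No group overlapped with another. The rise was 20.5-fold at 5 µM (log2 difference 4.36, SE 0.15, adjusted p = 8.64e-05 by limma) and 8.75-fold at 10 µM (3.08, SE 0.30, adjusted p = 0.00366). Among symbols above 0 in the same library, CCL20 moved from the 20.9 to 23.8 percentile untreated to 67.4 to 70.4 at 5 µM and 47.2 to 55.4 at 10 µM, while IL8 moved from 22.7 to 26.8 to 42.0 to 43.4 and 36.5 to 45.7.

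**Figure D4:**
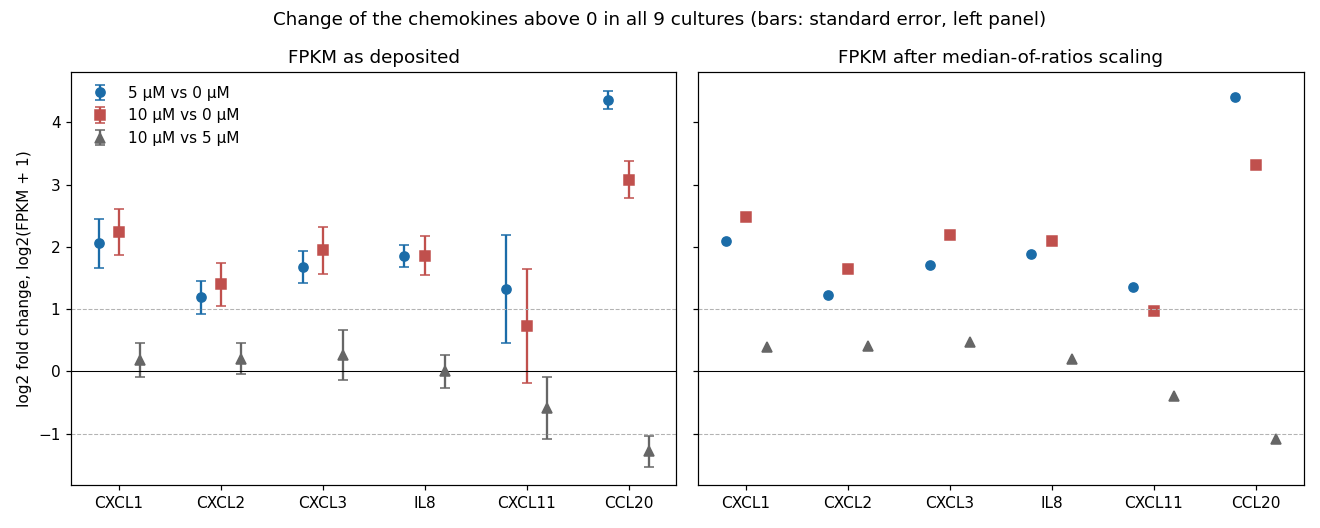
Log2 difference of FPKM + 1 (y axis) for the 6 chemokines above 0 in all 9 libraries (x axis), as deposited with standard errors (left) and after median-of-ratios scaling without error bars (right). Circles compare 5 µM with 0 µM, squares 10 µM with 0 µM and triangles 10 µM with 5 µM, and dashed lines mark differences of 1 and −1: the triangle of CCL20 lies below −1 in both panels and those of CXCL1, CXCL2, CXCL3 and IL8 lie at or above 0.

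The comparison of 10 µM with 0 µM shares its untreated libraries with that of 5 µM. In it, 5 of the 10 chemokines were up-regulated and 0 down-regulated (CXCL1, CXCL2, CXCL3, IL8 and CCL20), against 4.07% of 18928 genes tested that were up-regulated and 3.40% that were down-regulated. These 5 were also the members whose replicates did not overlap, all higher, against 14.4% of genes higher and 26.7% lower without overlap. Over all genes 771 were up-regulated and 644 down-regulated, and with median-of-ratios scaling 1125 and 284. The median log2 difference of genes above 0 in all 6 libraries was −0.23 as deposited, and from 5 µM to 10 µM it was −0.24. The members' differences grew with that scaling, to 2.48 for CXCL1, 1.64 for CXCL2, 2.19 for CXCL3, 2.10 for IL8 and 3.32 for CCL20. Without 10 µM replicate 3, 1 member (CCL20) kept its call, and the adjusted p was 0.0586 for CXCL1 and 0.0532 for IL8. The call of CXCL3 was also lost without any single untreated replicate (adjusted p = 0.0542 to 0.0716), and that of CXCL2 without any single replicate other than untreated replicate 1 (adjusted p = 0.0528 to 0.127).

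The comparison of 10 µM with 5 µM asked what the higher concentration added. Here 0 members were up-regulated and 1, CCL20, was down-regulated, against 0.129% and 4.82% of 20085 genes. CCL20 at 10 µM was 0.428 times its 5 µM level (log2 difference −1.28, SE 0.25, adjusted p = 0.0281 by limma), and −1.08 with median-of-ratios scaling (adjusted p = 0.0153). The call was lost when any single library other than 10 µM replicate 2 was left out (adjusted p = 0.0611 to 0.158). Lower without overlap were CXCL5, CXCL6 and CCL20, against 25.3% of genes tested, and 0 members against 4.37% of genes were higher without overlap. CXCL1, CXCL2 and CXCL3 gave log2 differences of 0.18 (SE 0.27), 0.20 (SE 0.25) and 0.27 (SE 0.40), with adjusted p of 0.613 to 0.677. Single genes were also tested by exact permutation of the replicates, two-sided, and wherever the groups of a member did not overlap this p was 0.1, below which 3 against 3 replicates cannot go.

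At 10 µM a single library set the upper end of most ranges. Replicate 2 was the highest of the 10 µM replicates for 8 of the 9 members above 0 there, the exception being CXCL6, and for 7 after median-of-ratios scaling, when replicate 3 was highest for CXCL2. Its scaling factor was 1.05 against 0.835 and 0.857 in replicates 1 and 3. Without replicate 2 the 10 µM means were 42515 FPKM for CXCL1, 29402 for CXCL2, 20618 for CXCL3, 27634 for IL8 and 46979 for CCL20, all still above every untreated replicate, and CXCL10 fell to a mean of 447 FPKM.

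The main receptors of these chemokines were not called in any comparison. CXCR2, the main receptor of the neutrophil-attracting group, was listed at 0 in all 9 libraries, and CXCR1 was at 0 except in 5 µM replicates 1 and 3 (1116 and 521 FPKM). CXCR3, the receptor of CXCL9, CXCL10 and CXCL11, had means of 9125, 6189 and 4475 FPKM at 0, 5 and 10 µM. CCR6, the receptor of CCL20, had means of 1161, 837 and 2049.75 FPKM. CXCR2 was not tested, being at 0. CXCR7, a second receptor of CXCL11, was down-regulated at 10 µM against 5 µM (log2 difference −9.44, SE 1.36, adjusted p = 0.0107 by limma). It went from 672, 1591 and 314 FPKM to 0 in all 3 libraries, and was at 808, 0 and 0 FPKM untreated. The 5 µM values rest on about 14 fragments in all, and a log2 difference against a group listed at 0 depends on the pseudocount.

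Several other chemokine ligands rose at 5 µM. Of the 25 tested, 7 were up-regulated and 0 down-regulated, beside 14.1% and 2.17% of all genes. CXCL17, a mucosal chemokine, went from 4819 ± 1284 to 298518 ± 33606 FPKM (log2 difference 5.98, SE 0.21, adjusted p = 9.14e-05 by limma) and stood at 77882 ± 22048 FPKM at 10 µM, where it was down-regulated against 5 µM (−1.97, SE 0.21, adjusted p = 0.00485). CXCL14, an epithelial chemokine, was listed at 0 untreated and was at 9021 ± 2082 FPKM at 5 µM and 3499 ± 1719 FPKM at 10 µM. CCL24, an eosinophil attractant, and XCL1, a ligand for cross-presenting dendritic cells, were likewise listed at 0 untreated and had means of 5809 and 4496 FPKM at 5 µM. Against 5 µM, 4 of 26 ligands tested were down-regulated at 10 µM and 0 up-regulated (4.82% and 0.129% of all genes), and at 10 µM against 0 µM 3 of 23 were up-regulated (4.07%). CCL22, a ligand of CCR4, was among the 4 (14803 ± 885 to 4189 ± 2307 FPKM). Platelet chemokine genes lie inside the neutrophil-attracting cluster, and PF4 there was not called (log2 difference 8.65, SE 3.35, adjusted p = 0.0871 by limma at 5 µM), with means of 1453, 9074 and 5561 FPKM, while PPBP was above 0 in 10 µM replicate 2 alone (694 FPKM).

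Of 19 chemokine receptors tested at 5 µM, 4 were up-regulated and 1 down-regulated, beside 14.1% and 2.17% of all genes tested. CCR10, the receptor of CCL27 and CCL28, went from 1759 ± 679 to 21954 ± 5783 FPKM (log2 difference 3.69, SE 0.41, adjusted p = 0.00107 by limma). CCRL1, a scavenging receptor, went from 33322 ± 5015 to 10813 ± 2234 FPKM (−1.63, SE 0.20, adjusted p = 0.00153). CCR7 was listed at 0 untreated and had a mean of 1858 FPKM at 5 µM. At 10 µM against 0 µM, 2 of 15 receptors were up-regulated and 2 down-regulated (4.07% and 3.40% of all genes), and against 5 µM 0 and 3 of 19 (0.129% and 4.82%).

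NF-kB subunits and inflammatory targets include genes that share their regulators with the neutrophil-attracting chemokines. Of 26, 10 were up-regulated at 5 µM and 0 down-regulated, with a median log2 difference of 0.91, beside 14.1% and 2.17% of all genes tested and their median of 0.14. At 10 µM against 0 µM 4 of 25 were up-regulated (4.07% of all genes), and 4 of 26 were down-regulated at 10 µM against 5 µM (4.82%). The cytokine gene IL32 went from 4622 ± 1412 to 120928 ± 16738 FPKM at 5 µM (log2 difference 4.74, SE 0.24, adjusted p = 0.000148 by limma) and stood at 39247 ± 12432 at 10 µM. LTB, which encodes lymphotoxin beta, was listed at 0 untreated, at 10561 ± 1738 FPKM at 5 µM and at 1187 ± 234 FPKM at 10 µM. The subunit genes had smaller differences: NFKB2 and RELB had log2 differences of 0.88 and 0.87 at 5 µM, and RELA and NFKB1 of −0.45 and −0.41, none past a difference of 1.

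Of 23 upstream inducers and receptors, 7 were up-regulated at 5 µM and 0 down-regulated, beside 14.1% and 2.17% of all genes tested. They include IL1R1, the signaling receptor of interleukin 1, from 3801 ± 1212 to 15816 ± 2295 FPKM (log2 difference 2.09, SE 0.29, adjusted p = 0.00218 by limma). TLR5, the flagellin receptor, TNFRSF1B, a TNF receptor, and the interferon genes IFNB1 and IL28B were listed at 0 untreated, and had means of 725, 2084, 3169 and 5322 FPKM at 5 µM. IFNB1 rested on about 19 fragments over the 5 µM libraries, and was at 0, 2424 and 11443 FPKM at 10 µM. IL28B had a mean of 2558 ± 2553 FPKM at 10 µM, and its fragments were not estimated. At 10 µM against 0 µM 2 of 23 were up-regulated (4.07% of all genes), and against 5 µM the count was 0 in either direction.

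Interferon-induced genes outside the chemokine family were set beside CXCL9, CXCL10 and CXCL11. Of 31, 21 were up-regulated at 5 µM, beside 14.1% of all genes tested and 0 of those 3 chemokines, and their median log2 difference was 1.46. RSAD2, an antiviral enzyme, went from 41005 ± 15143 to 288678 ± 28593 FPKM (log2 difference 2.89, SE 0.28, adjusted p = 0.000765 by limma) and MX2, an antiviral GTPase, from 110041 ± 36405 to 598216 ± 41292 FPKM (2.50, SE 0.25, adjusted p = 0.000818). At 10 µM against 0 µM 3 of 31 were up-regulated (4.07% of all genes), RSAD2 and MX2 among them (1.75 and 1.44). Against 5 µM, 0 of 31 were up-regulated and 1 down-regulated at 10 µM (0.129% and 4.82% of all genes). The 1 was MX2 (−1.06, SE 0.22, adjusted p = 0.0357 by limma). RSAD2 and MX2 rested on about 8721 and 18092 fragments at 5 µM, against 46 for CXCL10, and whether the chemokines responded differently was not tested.

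Genes whose log2(FPKM + 1) followed a chemokine most closely over the 9 libraries were sought among 15173 genes above 0 in all of them, as a description in which all points share the library and its scale. The closest to IL8 were WDR76 (r = 0.989), FN3KRP (0.987) and GAMT (0.985). The closest to CCL20 were LTBP2 (0.998), GGT6 (0.997) and MUC21 (0.997), and MUC21, a mucin gene, had means of 1419, 15987 and 8029 FPKM at the 3 concentrations. The closest to CXCL10 were FAM166A (0.966), KMO (0.960) and C1orf88 (0.946). CXCL10 was listed at 0 in untreated replicate 2 and 10 µM replicate 1, and on the log scale these libraries weigh heavily in r. FAM166A and C1orf88 had their highest means at 5 µM, as CXCL10 did. KMO did not, with means of 300, 391 and 433 FPKM at the 3 concentrations.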

How the data were processed

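RNA of 9 HT-29 cultures, 3 per 5-Aza concentration, was sequenced as paired-end libraries with a TruSeq kit not stated to keep strand. The authors trimmed low-quality bases (FASTX-Toolkit), mapped the reads with TopHat on hg19 and obtained gene FPKM from Cufflinks. The deposited tables hold these FPKM values, 24934 entries for 23284 symbols, and their library term is not given in the sources used here. Values of the 543 repeated symbols were summed.

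Genes whose largest FPKM reached 10 in either group were tested on log2(FPKM + 1) with limma 3.58.1 (lmFit, eBayes with trend) under R 4.3.3, on the 6 libraries of each comparison, with Benjamini-Hochberg adjustment over all genes tested. The cutoff of 10 removed few genes: at 5 µM against 0 µM, 20051 were tested with it and 20115 without it. For the members, 1 fragment was worth 127 FPKM or more, so genes seen in single fragments stayed in the test. A call needed both an adjusted p no larger than 0.05 and an absolute log2 difference over 1. The comparison of 10 µM with 0 µM is not among those of the study's methods. The test was checked on simulated data. Members and gene lists were chosen with earlier results of these data known. All members are named, and of the other lists the called genes with the largest changes and the members' receptors, with a few others (NF-kB subunits, IL1R1, ART3, PF4, PPBP and some markers) named after their values were seen.

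Depth was estimated because 46 of 46 values of 12 microRNA genes of 110 nt were whole multiples of the smallest step (tolerance 0.01). The members' own steps gave fragments, whole within 0.05 for all values except CXCL2 and CXCL3 in 5 µM replicate 3, and CCL20, whose steps could not be resolved. In that replicate CXCL2 and CXCL3 came to 103.75 and 97.75 fragments, and whether they shared reads was not tested. An exact 0 can be a failed estimate and is described as listed at 0. Fragments of PCR-amplified libraries are not independent molecules. Promoters were read from RefSeq (GRCh38.p14) and gene positions from an annotation of GRCh37. The annotation version that the authors used is not given in the sources used here. Alternatives were other pseudocounts, filters, scalings, fits and fold thresholds, the largest entry of a repeated symbol, and leaving out each replicate.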

Additional observations from a re-analysis of the deposited data

How the results depend on the processing

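The members' calls depended most on the replicates and on the fold threshold. Of 526 alternative values of single members, 473 kept direction and side of the threshold, 29 lost it, 14 gained it and 10 changed sign, which covers the alternatives run here. At 5 µM against 0 µM, genes up-regulated and down-regulated were 2818 and 436 as reported, 1463 and 70 when the fold was tested against 2 (3 members), 4263 and 3553 with no fold threshold, and 3635 up and 156 down when scaled to the estimated fragment total, an alternative chosen after seeing the data, which moved the median log2 difference of genes above 0 in all 6 libraries from −0.04 to 0.26 here and from −0.23 to 0.27 at 10 µM. At 10 µM against 0 µM, 771 and 644 became 1174 up with all 9 samples in one fit, 284 down with median-of-ratios scaling, 145 and 16 with the fold tested against 2 (1 member), 1837 down with no fold threshold, and 1755 and 106 with the fragment total. At 10 µM against 5 µM, 26 and 969 became 7 and 374 with the fold tested against 2 (0 members), 17 up when 10 estimated fragments were required, 55 up with median-of-ratios scaling, 64 up with no fold threshold and 56 up with the fragment total. Of the members, 3 were down-regulated there with a pseudocount of 1000, 2 when 10 fragments were required and 2 with all 9 samples in one fit.

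Leaving out a replicate gave 337 to 819 genes up and 165 to 1500 down at 10 µM against 0 µM with 1 to 4 members called, and 12 to 64 up and 176 to 1873 down at 10 µM against 5 µM with 0 to 2 members down. The largest counts of down-regulated genes, 1500 and 1873, came without 10 µM replicate 2.

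Signs changed only for differences that had not passed. CXCL9 at 5 µM against 0 µM was 0.47 as reported, −0.99 without untreated replicate 1 or 3 and −2.92 without 5 µM replicate 3, and reached 3.39 without untreated replicate 2. CXCL10 at 10 µM against 0 µM was 0.67, and −2.67 without untreated replicate 2, −1.78 without 10 µM replicate 2 and −0.55 without 10 µM replicate 3, and reached 4.35 without 10 µM replicate 1. CXCL11 at 10 µM against 0 µM was 0.73, and between −0.20 without untreated replicate 2 and 1.55 without untreated replicate 1. From 5 µM to 10 µM, CXCL3 was −0.11 without 10 µM replicate 2 and 0.62 without 10 µM replicate 1, and IL8 was −0.05 without 5 µM replicate 1, −0.28 without 10 µM replicate 2 and 0.22 without 10 µM replicate 1.

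No pairing by replicate number was seen. Deviations from group means correlated between −0.297 and 0.208 for cultures with the same number, and between −0.415 and 0.318 for different numbers. With 3 replicates per group this cannot decide whether cultures were paired, and the labels do not say. With the replicate block, members called were 6 at 5 µM and 4 at 10 µM against 0 µM, and 0 at 10 µM against 5 µM, where genes called were 11 up and 407 down. CXCL2 at 10 µM against 0 µM (adjusted p = 0.0636) and CCL20 at 10 µM against 5 µM (adjusted p = 0.0595) lost their calls under the block.

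Depth limits CXCL5, CXCL6, CXCL9 and CXCL10 most, since they rest on at most 46 fragments per group.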
